A study of Homo sapiens with 6 samples.

Results

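The 10 aldehyde dehydrogenase (ALDH) genes were followed in MDA-MB-231 cells and in an adriamycin-resistant line made from them. They were taken by name, as ALDH1A1, ALDH1A2, ALDH1A3, ALDH1B1, ALDH1L2, ALDH2, ALDH3A1, ALDH3A2, ALDH3B1 and ALDH7A1, and make up 10 of the 19 ALDH genes and of the 58735 genes in the deposited table. MDA-MB-231 is an established triple-negative breast cancer (TNBC) cell line, and adriamycin (ADR, doxorubicin) is an anthracycline that damages DNA. The study compared RNA from parent cells with RNA from ADRr cells, each with 3 libraries. No transgene, knockdown or other agent is named for these 6 libraries. The methods state that ADRr cells came from parent cells exposed stepwise to rising ADR concentrations, from which resistant clones were isolated by limiting dilution. Whether the sequenced cells were 1 clone or several is not given in the sources used here. Whether ADR was in the medium at harvest is not given in the sources used here. The series record speaks of 3 time points, which the sample labels do not name, and nothing states that the libraries of a group came from separate cultures. The p-values below therefore measure only the spread between these samples, which may be technical.

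Aldehyde dehydrogenases oxidize aldehydes to carboxylic acids with NAD or NADP as cofactor. The ALDH1A enzymes turn retinaldehyde into retinoic acid, the mitochondrial enzymes ALDH2 and ALDH1B1 clear acetaldehyde and lipid-derived aldehydes, and the ALDH3 enzymes act on fatty and aromatic aldehydes. High ALDH enzyme activity in a flow cytometric assay is widely used to mark stem-like cells in breast tumors, and in breast cancer lines ALDH1A3 is among the isoforms known to contribute to it.

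The promoters of the 3 genes with the largest well-counted differences between the groups, ALDH1A3, ALDH1B1 and ALDH7A1, are printed first, since later values refer to them. They are the 250 bases before the annotated RefSeq start on GRCh38.p14, read 5′ to 3′ on the strand of the gene. The gene spans given below (GENCODE 29) begin upstream of these starts. The ALDH1A3 window therefore lies inside its gene span, and those of ALDH1B1 and ALDH7A1 overlap theirs in part. Capitals mark matches to any of 7 short motifs.

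ALDH1A3, chr15:100879581-100879830, plus strand: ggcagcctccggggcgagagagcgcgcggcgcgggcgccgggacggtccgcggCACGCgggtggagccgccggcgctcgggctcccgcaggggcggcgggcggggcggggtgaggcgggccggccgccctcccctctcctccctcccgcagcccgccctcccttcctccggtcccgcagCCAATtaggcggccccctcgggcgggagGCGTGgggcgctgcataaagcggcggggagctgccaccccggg

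ALDH1B1, chr9:38392452-38392701, plus strand: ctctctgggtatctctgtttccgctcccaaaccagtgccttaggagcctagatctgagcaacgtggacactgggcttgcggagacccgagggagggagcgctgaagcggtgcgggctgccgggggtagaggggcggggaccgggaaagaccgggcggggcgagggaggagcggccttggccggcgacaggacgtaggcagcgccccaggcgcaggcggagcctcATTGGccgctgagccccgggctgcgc

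ALDH7A1, chr5:126595220-126595469, minus strand: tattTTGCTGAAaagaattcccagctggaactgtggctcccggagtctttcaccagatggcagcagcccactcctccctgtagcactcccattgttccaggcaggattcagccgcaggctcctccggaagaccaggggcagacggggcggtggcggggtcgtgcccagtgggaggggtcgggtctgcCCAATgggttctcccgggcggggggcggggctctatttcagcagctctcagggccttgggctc

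The ALDH1A3 window was the richest of the 3 in G and C, with a GC content of 82.4% and 38 CpG dinucleotides. The windows of ALDH1B1 and ALDH7A1 had 70.4% and 64.0% GC with 23 and 11 CpG. Over 35116 RefSeq promoter windows of this length the medians were 58.0% GC and 11 CpG. Both strands were searched for the antioxidant response element core TGACNNNGC, the aryl hydrocarbon receptor core GCGTG, the CCAAT box, the ATF4 composite element TGATGNAA, the C/EBP element TTGCNNAA, the nuclear receptor core AGGTCA and the STAT palindrome TTCNNNGAA. No matches overlapped in the printed windows. In ALDH1A3 the capitals are GCGTG, at 197 to 193 bases (on the other strand) and at 43 to 39 bases before the start, and CCAAT at 71 to 67 bases. In ALDH1B1 they are CCAAT on the other strand, at 26 to 22 bases. In ALDH7A1 they are TTGCTGAA at 246 to 239 bases and CCAAT at 63 to 59 bases. RefSeq entries were found for 7 of the 10 genes, with 10 windows in all since some genes have more than 1 annotated start. CCAAT was present in 6 of these 10 windows, each of a different gene, and in 32.0% of all windows. GCGTG was present in 3 of the 10, and in 32.2% of all windows, and TTGCNNAA in 1 of the 10, and in 9.05% of all windows. The 4 other motifs, found in 10.9% (TGACNNNGC), 3.14% (TGATGNAA), 12.1% (AGGTCA) and 6.57% (TTCNNNGAA) of all windows, were present in none of the 10. A match describes letters in the sequence and is not a measured binding site.

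The cells carried the marks of their label, apart from ERBB2 RNA. VIM, KRT8, KRT18, CD44, AXL and CAV1 had at least 2522 counts in every library, ESR1 had 0 or 1 and PGR had 0. ERBB2, listed with ESR1 and PGR as absent in a triple-negative line, had 882 to 2303 counts. Of 20 markers of leukocytes, endothelial cells, fibroblasts and hepatocytes, TYROBP, MS4A1, DCN, ALB and TTR were at 0 in every library and 10 more had at most 13 counts in any library. The other 5 were the hepatocyte gene SERPINA1 (1462 to 1718 counts in parent and 2246 to 2606 in ADRr libraries), the fibroblast genes PDGFRB (999 to 1122 and 127 to 168) and LUM (70 to 85 and 46 to 59), the endothelial gene KDR (42 to 81 and 127 to 163) and the leukocyte gene CD14 (78 to 133 and 87 to 101). The part of these genes in the results below was not tested. Library totals were 15983985 to 18272314 counts, so that a count of 0 is compatible with as many as 3 counts by counting error alone, which is 0.164 to 0.188 CPM (scaled by each library's total).

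Across the whole table the 2 groups were far apart. Of 15242 genes with enough counts to be tested, 58.8% were called different, 29.2% higher and 29.6% lower in ADRr cells, at an adjusted p of at most 0.05 in edgeR's quasi-likelihood test and a fold change of at least 1.2. Of the 10 ALDH genes, 1 was called higher (ALDH1A3) and 3 were called lower (ALDH1A2, ALDH1B1 and ALDH7A1), 4 were tested and not called, and 2 (ALDH1A1 and ALDH3A1) had too few counts to be tested. ALDH1A2 passed the count filter only through the parent libraries, so its entry into the test required a difference. The median absolute log2 fold change over all tested genes was 0.46, and of the ALDH genes ALDH1A3, ALDH7A1 and ALDH1A2 lay beyond it. Normalized counts, here counts divided by the TMM-scaled library size and multiplied by the mean of those sizes, did not overlap between the groups for 69.2% of all tested genes, with ADRr above for 34.5% and below for 34.7%. Among the ALDH genes tested, ADRr was above for ALDH1A3 and below for ALDH1A2, ALDH1B1, ALDH2, ALDH3A2 and ALDH7A1.

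**Figure D1:**
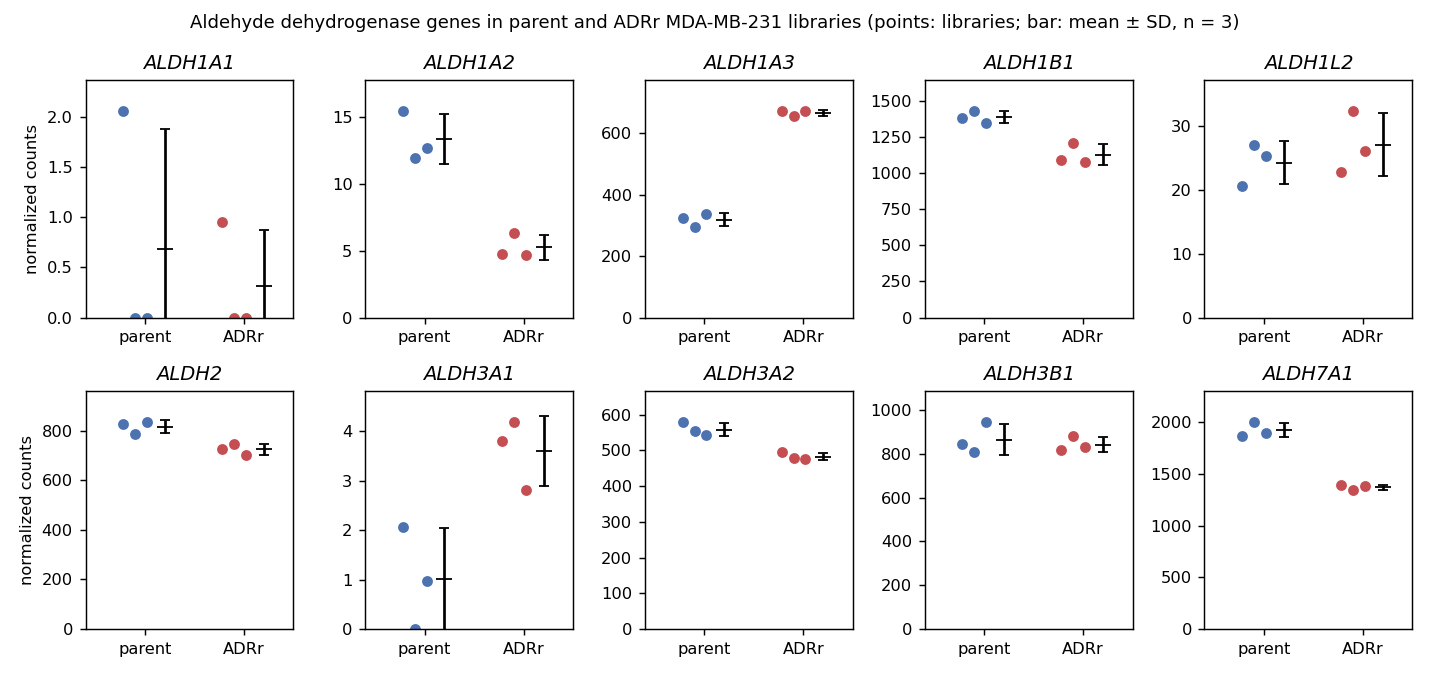
Normalized counts (y axis, linear, from 0, a scale of its own in each panel) of the 10 ALDH genes in the 3 parent (blue) and 3 ADRr (red) libraries, with mean ± SD beside each group and error bars cut at 0. ALDH1A3 is higher in all 3 ADRr libraries, ALDH1B1 and ALDH7A1 are lower, and the groups of ALDH1L2 and ALDH3B1 overlap.

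Among the 3 retinaldehyde dehydrogenases, ALDH1A3 was the one with substantial RNA. ALDH1A3 (ENSG00000184254, chr15:100877714-100916626, plus strand) had 324, 294 and 336 normalized counts in the parent libraries and 671, 655 and 672 in the ADRr libraries. Every ADRr library lay above every parent library, and the spread within each group was small beside the gap. The mean went from 318 ± 21.5 to 666 ± 9.57 (SD, n = 3 each), a fold change of 2.09 with a 95% interval of 1.85 to 2.36. ALDH1A3 rose by this test, with a log2 fold change of 1.06 (SE 0.0848) and an adjusted p of 1.93e-10 (edgeR). On GENCODE 29, 1585 bases, or 27.5% of its exon sequence, also lie in exons of the antisense gene AC015712.2, and the strand setting of the counting is not given in the sources used here. AC015712.2 itself had 34 to 40 counts in parent and 25 to 40 in ADRr libraries. These counts do not show how reads from the shared bases were assigned, and the effect of the overlap on ALDH1A3 was not tested. In RNA from whole cultures, a change in the share of cells expressing a gene and a change in its RNA per cell cannot be told apart.

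ALDH1A2 and ALDH1A1, the other two ALDH1A enzymes, were near the detection limit. ALDH1A2 (ENSG00000128918, chr15:57953424-58497866, minus strand) had 15, 11 and 13 counts in parent and 5, 6 and 5 in ADRr libraries. All 3 ADRr libraries were below all 3 parent libraries, at counts where a few reads decide the value. ALDH1A2 reached the level of the count filter in 3 parent and 0 ADRr libraries, so it entered the test only through the parent libraries. It was called lower, with a log2 fold change of -1.34 (SE 0.480, 95% interval -2.33 to -0.34, adjusted p = 0.018, edgeR). Since it entered this way, the p-value and interval of this call are not support for a decrease. This call did not hold in DESeq2, where the log2 fold change was -1.35 and the adjusted p 0.113, nor without parent replicate 1, ADRr replicate 1 or ADRr replicate 3, where the log2 fold changes were -1.22, -1.26 and -1.26 with adjusted p of 0.0681, 0.0669 and 0.0658 in edgeR. ALDH1A1 (ENSG00000165092, chr9:72900662-73080442, minus strand), an isoform long linked to the stem-cell assay, had 2, 0 and 0 counts in parent and 1, 0 and 0 in ADRr libraries. Both groups were at or under the 3-count limit, so no fold change is given and a difference was not detectable at this depth. Per length, ALDH1A3 carried 96.9 ± 1.01% of the summed ALDH1A FPKM in parent and 99.4 ± 0.148% in ADRr cells (SD, n = 3 each).

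ALDH1B1 and ALDH2, the mitochondrial acetaldehyde-oxidizing enzymes, both had less RNA in ADRr libraries, by small margins. ALDH1B1 (ENSG00000137124, chr9:38392664-38398661, plus strand) had 1385, 1432 and 1348 normalized counts in parent and 1092, 1211 and 1079.6 in ADRr libraries. The highest ADRr library was below the lowest parent library. ALDH1B1 fell by 0.30 on the log2 scale (SE 0.0642, 95% interval -0.43 to -0.17, adjusted p = 0.000274, edgeR), a fold of 0.812. Tested against the fold of 1.2 itself (edgeR's glmTreat), its adjusted p was 0.194. ALDH2 (ENSG00000111275, chr12:111766887-111817529, plus strand) had 826, 785 and 835 normalized counts in parent and 726, 746 and 702 in ADRr libraries. These groups did not overlap either, but the log2 fold change of -0.17 (SE 0.0705, 95% interval -0.32 to -0.02, adjusted p = 0.0377, edgeR) was smaller than the fold required, so ALDH2 was not called.

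ALDH1L2 was low in both groups. It is the mitochondrial 10-formyltetrahydrofolate dehydrogenase, which oxidizes the one-carbon unit to carbon dioxide, leaves tetrahydrofolate and makes NADPH. ALDH1L2 (ENSG00000136010, chr12:105019784-105084577, minus strand) had 20, 25 and 26 counts in parent and 24, 31 and 28 in ADRr libraries. The groups overlapped, and the log2 fold change of 0.15 had a 95% interval of -0.50 to 0.81 (adjusted p = 0.685, edgeR), which leaves room for differences in either direction at this depth. Of its exon sequence 1.7% is shared with C12orf45 on the opposite strand, which had 153 to 249 counts.

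The 3 ALDH3 genes encode the fatty aldehyde dehydrogenase ALDH3A2 of the endoplasmic reticulum, whose loss causes Sjögren-Larsson syndrome, the membrane-bound ALDH3B1 that acts on lipid-derived aldehydes, and ALDH3A1, the abundant corneal enzyme that also oxidizes aromatic aldehydes. ALDH3A2 (ENSG00000072210, chr17:19648136-19677598, plus strand) had 579, 554 and 543 normalized counts in parent and 495, 478 and 475 in ADRr libraries. ADRr libraries were all lower, but the log2 fold change of -0.21 (SE 0.0797, 95% interval -0.38 to -0.04, adjusted p = 0.0246, edgeR) stayed under the required fold and ALDH3A2 was not called. ALDH3B1 (ENSG00000006534, chr11:68008578-68029282, plus strand) had 845, 807 and 946 normalized counts in parent and 816, 880.1 and 832 in ADRr libraries. The ADRr values lay inside the parent range, with a log2 fold change of -0.04 and a narrow 95% interval of -0.19 to 0.11 (adjusted p = 0.647, edgeR). ALDH3A1 (ENSG00000108602, chr17:19737984-19748943, minus strand), which lies close to ALDH3A2 on chromosome 17, had 2, 0 and 1 counts in parent and 4, 4 and 3 in ADRr libraries. Every ADRr library was above every parent library, but these are 3 against 11 counts in all. The depth-scaled ratio was 3.55 with an exact Poisson 95% interval of 0.937 to 19.8, which includes 1. That interval carries counting error only, not the spread between libraries.

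ALDH7A1, or antiquitin, oxidizes α-aminoadipic semialdehyde in lysine breakdown and also betaine aldehyde. Of the decreases among the 10 genes, its own had the smallest adjusted p. ALDH7A1 (ENSG00000164904, chr5:126531200-126595418, minus strand) had 1872, 2002 and 1901 normalized counts in parent and 1390.2, 1346 and 1382 in ADRr libraries. All ADRr libraries lay well below the parent libraries, with a mean of 1925 ± 68.4 against 1373 ± 23.7 (SD, n = 3 each). ALDH7A1 fell by 0.49 on the log2 scale (SE 0.0574, 95% interval -0.61 to -0.37, adjusted p = 1.14e-07, edgeR), a fold of 0.713.

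**Figure D2:**
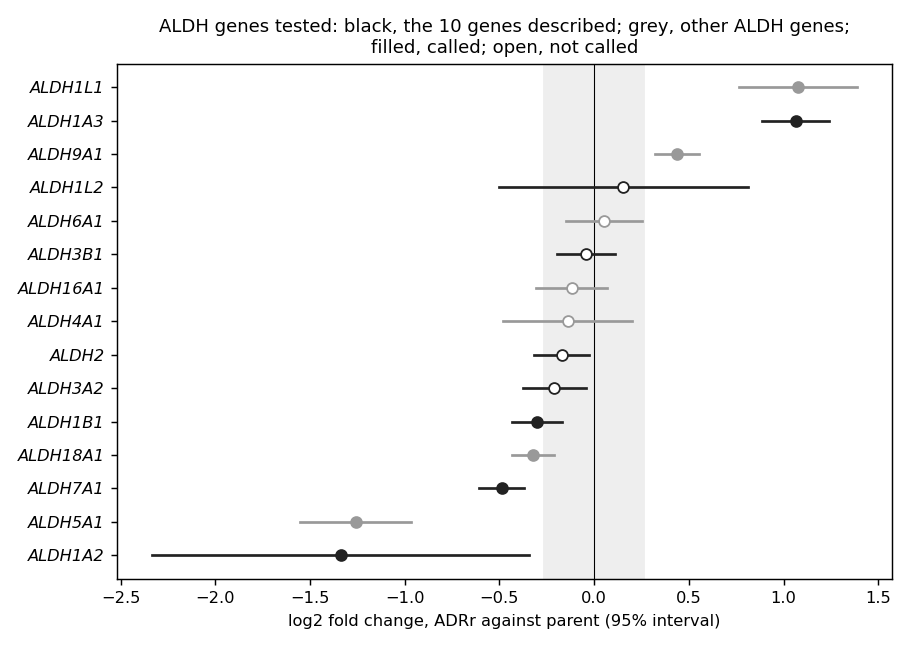
Log2 fold change of ADRr against parent (x axis, point and 95% interval, edgeR) for each tested ALDH gene, black for the 10 genes described and grey for the other ALDH genes, filled where called. The grey band spans a fold change of 1.2 in either direction, and ALDH1A3 at 1.06 is the only black filled point to the right of it.

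Levels of different genes were compared only per length, as the FPKM values that the authors deposited. In parent cells the order of mean FPKM was ALDH1B1 (25.2), ALDH3B1 (7.47), ALDH7A1 (6.12), ALDH3A2 (4.95), ALDH2 (4.80), ALDH1A3 (3.15), ALDH1L2 (0.163), ALDH1A2 (0.0884), ALDH3A1 (0.0148) and ALDH1A1 (0.0138). Among neighbours in that order, the library values of ALDH3A2 and ALDH2 overlapped, as did those of ALDH3A1 and ALDH1A1, and the others did not. In ADRr cells the order was ALDH1B1 (20.5), ALDH3B1 (7.30), ALDH1A3 (6.62), ALDH7A1 (4.38), ALDH3A2 (4.29), ALDH2 (4.28), ALDH1L2 (0.183), ALDH3A1 (0.0527), ALDH1A2 (0.0348) and ALDH1A1 (0.00639). ALDH7A1, ALDH3A2 and ALDH2 overlapped there as neighbours, and so did ALDH3A1 and ALDH1A2. ALDH1A3 thus moved from rank 6 to rank 3 of the 10. Ranks depend on the length used, which in the deposited FPKM is the union of all exons, 17970 bases for ALDH7A1 against 4964 bases for its principal transcript. Per kilobase of the principal transcript, ALDH7A1 ranked 2 in parent and 3 in ADRr cells, and ALDH1A3 ranked 6 and 4.

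**Figure D3:**
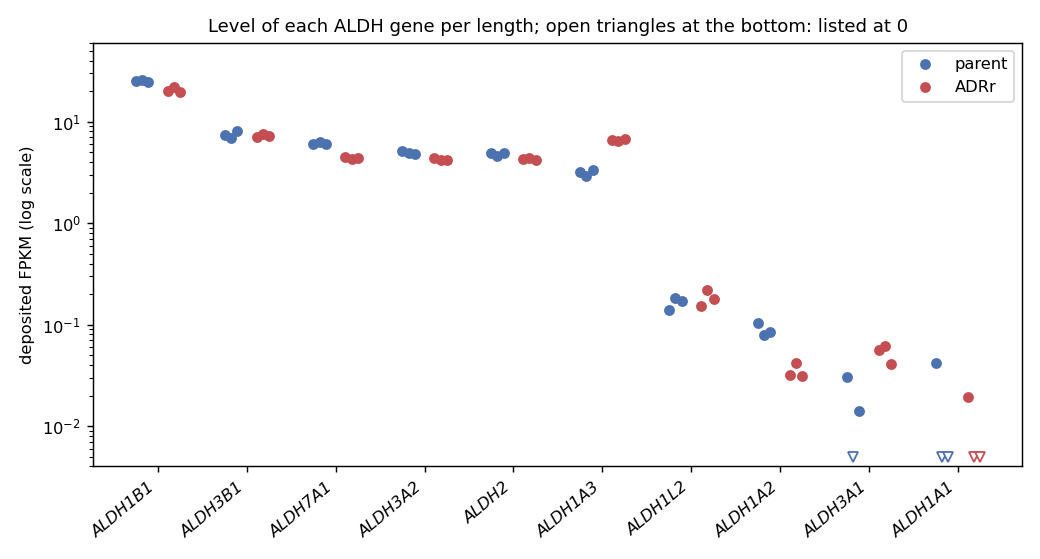
Deposited FPKM (y axis, log scale) of the 10 ALDH genes in each parent (blue) and ADRr (red) library, ordered by the parent mean, with open triangles at the bottom where a library is listed at 0. Of the 10 genes, 6 lie near or above 3 FPKM in both groups and 4 lie below 0.3, and ALDH1A3 is the one of these 6 whose ADRr points all lie above its parent points.

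Summed over the 10 genes, FPKM was 51.9 ± 0.110 in parent and 47.6 ± 1.42 in ADRr cells (SD, n = 3 each), with library sums of 51.8 to 52.0 and 46.7 to 49.3 that did not overlap. The summed mitochondrial ALDH2, ALDH1B1 and ALDH1L2 went from 30.1 ± 0.655 to 24.9 ± 1.39 FPKM. ALDH1B1 alone made up the largest part of that sum in every library. Over all 19 ALDH genes of the table, the sum was 139 ± 2.26 and 134 ± 2.53 FPKM, and the library values overlapped, at 136 to 141 in parent and 132 to 137 in ADRr cells. ALDH1A3 accounted for 2.27% of that sum in parent and 4.93% in ADRr cells.

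Of the other 9 ALDH genes, 2 were called higher, 2 lower, 3 were tested and not called and 2 were not tested. The 4 called of 7 tested are a share close to the 58.8% of all tested genes. ALDH1L1, the cytosolic counterpart of ALDH1L2, had 84, 65 and 99 counts in parent and 197, 164 and 189 in ADRr libraries, and rose by a log2 fold change of 1.08 (SE 0.149, adjusted p = 1.29e-06, edgeR). ALDH9A1, which oxidizes an aldehyde of carnitine synthesis, rose by 0.44 (SE 0.0552, adjusted p = 3.18e-07, edgeR). ALDH5A1, the succinic semialdehyde dehydrogenase of GABA breakdown, fell by 1.26 on the log2 scale (SE 0.140, adjusted p = 4.69e-08, edgeR), from 187, 205 and 201 counts to 83, 79 and 99. ALDH18A1, which makes the precursor of proline, fell by 0.32 (SE 0.0532, adjusted p = 1.36e-05, edgeR). Groups of these 4 genes did not overlap. ALDH4A1, ALDH6A1 and ALDH16A1 had log2 fold changes of -0.14, 0.05 and -0.12 and were not called, ALDH3B2 had no counts, and ALDH8A1 had 0 counts in parent and 2, 1 and 1 in ADRr libraries. Over all 19 genes, 3 were called higher, 5 lower, 7 were tested and not called and 4 were not tested. Of all tested genes, 29.2% were called higher and 29.6% lower. The 5 lower ALDH genes include ALDH1A2, which entered the test only through the parent libraries.

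Genes that share pathways with these enzymes were read from lists written by hand, and are set beside the 29.2% of all tested genes called higher, the 29.6% called lower and the median log2 fold change of -0.01 over all tested genes. Of 37 retinoid genes, which supply retinaldehyde to the ALDH1A enzymes or bind and sense its products, 15 were tested, 3 were called higher and 7 lower, with a median log2 fold change of -0.33. DHRS3, which reduces retinaldehyde back to retinol, fell by 1.49 on the log2 scale (adjusted p = 1.51e-10, edgeR), and FABP5, a carrier of fatty acids and retinoic acid, fell by 1.16 (adjusted p = 9.43e-09, edgeR). The retinoid receptor gene RXRB fell by 0.79 (adjusted p = 2.77e-10, edgeR). RDH14, DHRS4 and RDH13, which encode retinol or retinaldehyde oxidoreductases, rose by 0.73, 0.50 and 0.46 (adjusted p = 3.12e-07, 0.00355 and 0.00038, edgeR).

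Of 27 folate one-carbon genes, the pathway of ALDH1L2 and ALDH1L1, 24 were tested, 9 were called higher and 10 lower, with a median of -0.16. MTHFD2 and SHMT2, the mitochondrial enzymes that make one-carbon units, rose 2.30-fold and 2.08-fold (adjusted p = 1.28e-13 and 1.7e-14, edgeR), and the purine enzyme gene GART rose 2.02-fold (adjusted p = 1.28e-13, edgeR). The folate receptor gene FOLR1 fell to a fold of 0.280 (adjusted p = 2.67e-08, edgeR), and TYMS, which makes thymidylate, fell to a fold of 0.466 (adjusted p = 2.1e-12, edgeR). ALDH1L2 itself, with its log2 fold change of 0.15, was not among the genes called.

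Of 12 genes of lysine and choline breakdown, the pathways of ALDH7A1, 8 were tested, 3 were called higher and 3 lower, with a median of -0.25. AASS, the enzyme that makes the aminoadipic semialdehyde that ALDH7A1 consumes, fell by 0.77 on the log2 scale (adjusted p = 8.5e-09, edgeR), the same direction as ALDH7A1. AADAT, which acts after ALDH7A1, fell by 1.12 (adjusted p = 3.63e-05, edgeR), whereas DHTKD1, of the next step, rose by 0.76 (adjusted p = 1.25e-09, edgeR). SARDH, the sarcosine dehydrogenase of choline breakdown, fell by 0.89 (adjusted p = 8.87e-08, edgeR), and PHYKPL, which breaks down phosphohydroxylysine, rose by 0.87 (adjusted p = 1.63e-08, edgeR).

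Of 19 genes whose enzymes release aldehydes or handle fatty aldehydes, 15 were tested, 4 were called higher and 7 lower, with a median of 0.04. The polyamine oxidase genes SMOX and PAOX rose by 1.69 and 0.91 on the log2 scale (adjusted p = 2.99e-13 and 2.75e-06, edgeR). MAOB, the mitochondrial monoamine oxidase B, fell by 2.61 (adjusted p = 9.91e-12, edgeR), and the lysyl oxidase genes LOX and LOXL4 fell by 1.38 and 1.18 (adjusted p = 5.29e-12 and 4.1e-14, edgeR). The amine oxidase gene AOC2 was called higher at 0.48 (adjusted p = 0.0448, edgeR), a call that was lost in DESeq2 (adjusted p = 0.145), with the replicate number as a block (adjusted p = 0.051, edgeR) and without parent replicate 2 or 3 or ADRr replicate 1 or 2 (adjusted p of 0.0783, 0.131, 0.134 and 0.0881, edgeR).

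**Figure D4:**
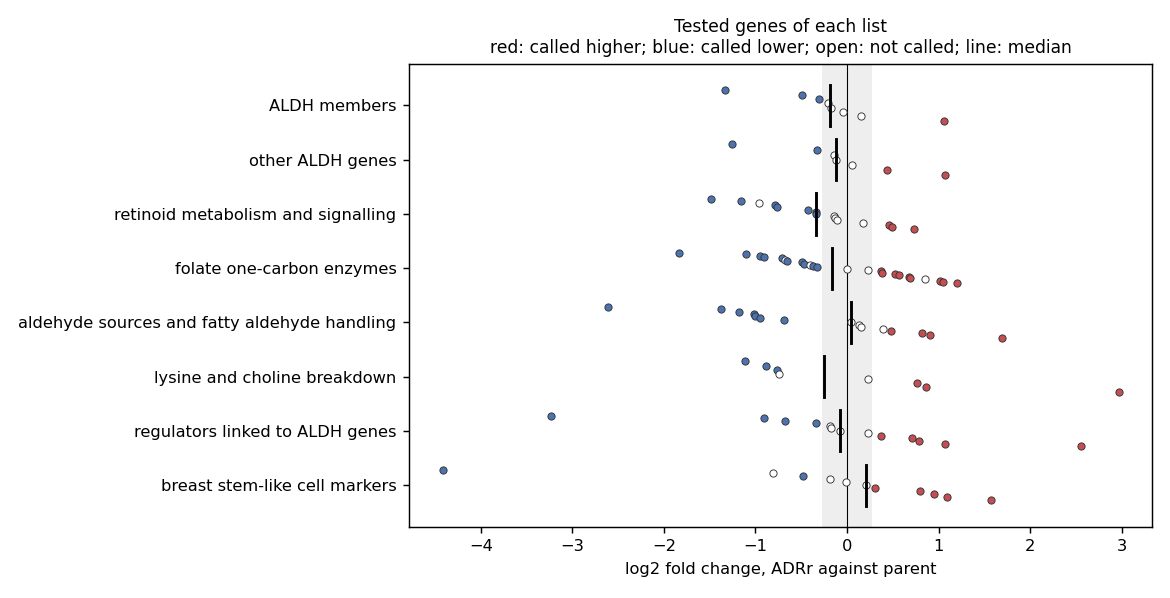
Log2 fold change of ADRr against parent (x axis) for every tested gene of each list (rows), red where called higher, blue where called lower and open where not called, with a vertical line at each median and a grey band for a fold change of 1.2. Each list has called genes on both sides, and the medians run from -0.33 for the retinoid genes to 0.21 for the breast stem-like cell markers.

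The position of each ALDH gene was set beside its nearest tested genes, 10 on each side where the chromosome allowed. ALDH1A3, near the end of the long arm of chromosome 15 and with 18 such neighbours, had a log2 fold change of 1.06 where the neighbours had a median of -0.10, and 5 of them were called higher and 6 lower. ALDH1A2, on the same chromosome, lay where 13 of 20 neighbours were called lower and 3 higher, with a median of -0.57 and quartiles of -1.23 and -0.18. The log2 fold change of ALDH1A2 itself, -1.34, lay below the lower quartile, but ALDH1A2 was tested only through its parent counts. The neighbours of ALDH7A1 had a median of -0.07, with 6 called higher and 6 lower, and those of ALDH1B1 had a median of -0.01, with 5 higher and 3 lower. Around the other 6 genes the medians were between -0.15 (ALDH1A1) and 0.24 (ALDH3A2).

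**Figure D5:**
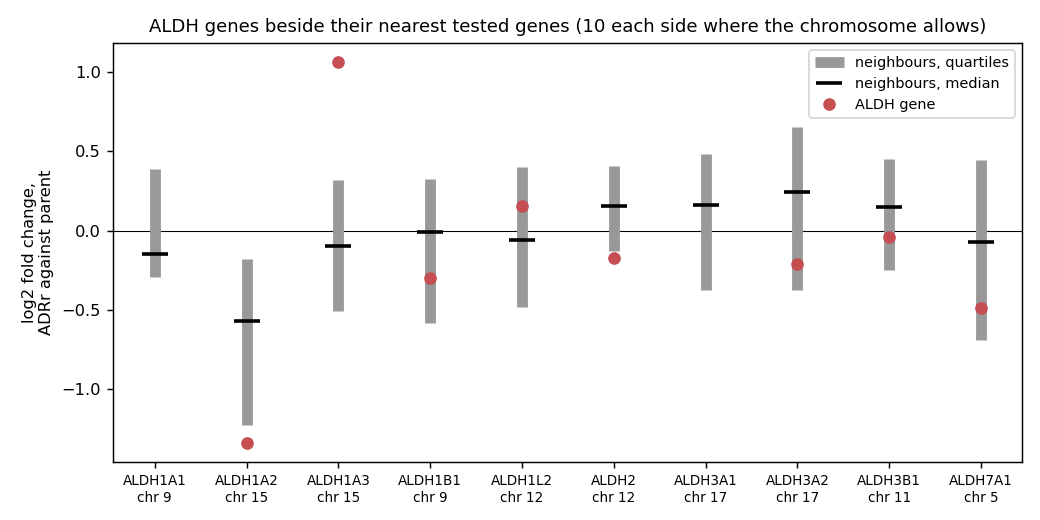
Log2 fold change of ADRr against parent (y axis) of each tested ALDH gene (red) beside the median (black) and quartiles (grey) of its nearest tested genes, by gene and chromosome (x axis). ALDH1A3 stands above its neighbours' upper quartile, and ALDH1A2 stands below the lower quartile of a neighbourhood with a median of -0.57.

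The genes most like ALDH1A3 across the 6 libraries, by Pearson's r on log2 CPM, were NUPR1 (r = 0.9998), a stress-induced nuclear protein gene, CYP20A1 (0.9998), an orphan cytochrome P450 gene, and SLC16A1 (0.9997), the lactate transporter gene, with log2 fold changes of 2.98, 0.41 and 2.55. For ALDH1A2 they were EDARADD (0.9986), GCA (0.997) and AC093323.1 (0.9965), with log2 fold changes of -4.73, -0.84 and -0.82. ALDH1A2 had only 5 to 15 counts per library and entered the test only through the parent libraries. Its r values are therefore no support for co-expression. The 6 libraries form 2 groups, so such values mostly record the group difference. An r of at least 0.95 was reached by 2525 of the 15241 other tested genes for ALDH1A3 and by 1760 for ALDH1A2.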

How the data were processed

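RNA from 3 parent and 3 ADRr MDA-MB-231 libraries was analysed. According to the methods, poly(A) RNA was made into libraries with the CORALL kit and sequenced in pairs on a NovaSeq, and reads were mapped and counted per gene. The submitters' processing notes list fastp, HISAT2 2.0.5, featureCounts 1.5.0-p3, DESeq2 1.20.0 and GRCh38. The strand setting is not given in the sources used here, and the sample records describe another kit. The authors deposited raw counts per gene and FPKM values made from them. FPKM equals the count divided by exon length and by a read number 1.01 to 1.03 times the library's total count. All genes carry GENCODE 29 coordinates.

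The count test ran in edgeR 4.0.16 under R 4.3.3. The 15242 genes kept by filterByExpr were TMM-normalized (factors 0.987 to 1.01), compared between groups by quasi-likelihood test and adjusted by Benjamini-Hochberg over all of them. The other 43493 were not tested. The threshold was an adjusted p of 0.05 with a fold of 1.2. For single genes an exact permutation test of 3 against 3 cannot go below p = 0.1 and was not used. Alternatives were other size factors, DESeq2 1.42.0, other filters, limma-trend 3.58.1 on log2(FPKM + 1) or log2(FPKM + 0.1), a replicate block, other call thresholds, each library left out and 20 neighbours on each side. The level per principal transcript was added after seeing the data. The test scripts were tested on simulated data.

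All 19 ALDH genes are named. From each other list, the 3 largest called increases and the 3 largest called decreases are named, leaving out genes whose higher group averaged under 50 normalized counts. A gene that this rule selects is not reported here. For the tested ALDH genes with the largest increase and decrease, the 3 genes with the highest Pearson r are also named. The genes, lists and tests were chosen with earlier results of these data known. RefSeq gave the promoter sequences.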

Additional observations from a re-analysis of the deposited data

How the results depend on the processing

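Alternatives that changed only the call rule, glmTreat among them, reuse the log2 fold change of the main fit, so their direction was fixed. With these included, ALDH1A3 kept its direction in all 18 alternatives, with log2 fold changes of 0.88 to 1.103, and ALDH7A1 in all 18, with -0.51 to -0.40. Both lost their calls only when an absolute log2 fold change of 1.2 was required (1.06 and -0.49), as did ALDH1B1 (-0.30), which was also lost in glmTreat (-0.30). That threshold left 1114 genes higher, 972 lower and 12 listed genes called. Of the 10 ALDH genes it left 0 higher and 1 lower, the latter being ALDH1A2, with 5 to 15 counts per library. With the adjusted p alone, 5 ALDH genes were lower, ALDH2 (-0.17) and ALDH3A2 (-0.21) being added. ALDH1A2, tested in 15 alternatives, lost its call in DESeq2 (-1.35), with no filter (-1.34, adjusted p = 0.0584) and in limma on log2(FPKM + 1) with no filter (-0.073), and ranged from -1.47 to -1.22 with each library left out. With each library left out, 1 ALDH gene was higher and 2 to 3 were lower, and 4297 to 4483 genes were higher and 4375 to 4610 lower. Among genes that were not called, the sign turned for ALDH3B1 (-0.095 to 0.025 with each library left out, 0.025 without parent replicate 3), ALDH4A1 (-0.24 to 0.00090, without ADRr replicate 3) and ALDH6A1 (-0.0018, without parent replicate 3, to 0.12). The aldehyde source list had 2 genes called higher in place of 4 in DESeq2, with no filter and with the block. With 20 neighbours on each side, the neighbours' medians were 0.13 for ALDH1A1, -0.40 for ALDH1A3, 0.046 for ALDH1L2, 0.062 for ALDH2, 0.20 for ALDH3A2, -0.0082 for ALDH3B1 and 0.22 for ALDH7A1. The cause of these shifts was not tested.

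Replicate numbers share only a number. Deviations of same-numbered libraries correlated at 0.0074, -0.021 and -0.046, and 1 of 6 libraries correlated best with its own number. With the replicate number as a block, 4406 genes were higher and 4464 lower, and 1 ALDH gene was higher and 3 were lower, the latter counts being those without the block too. Without the block 4451 genes were higher and 4507 lower. Of the named genes, AOC2 alone lost its call with the block. Depth limits ALDH1A1, ALDH3A1, ALDH1A2 and ALDH1L2, for which only large differences could have been seen.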

Other observations

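Of 14 regulators linked in general knowledge to ALDH genes, 13 were tested, 5 were called higher and 4 lower, with a median log2 fold change of -0.08. KLF4, a pluripotency-linked transcription factor, rose by 2.56 on the log2 scale, from 505, 484 and 515 counts in parent to 3234, 2868 and 3211 in ADRr libraries (adjusted p = 1.17e-19, edgeR). AHR, the aryl hydrocarbon receptor, rose by 1.07 (adjusted p = 3.02e-13, edgeR) and CEBPB, a basic leucine zipper factor, by 0.78 (adjusted p = 9e-09, edgeR). The mucin gene MUC1 fell by 3.24, from 331, 373 and 381 to 43, 39 and 39 counts (adjusted p = 4.28e-15, edgeR), and CEBPD and PPARG fell by 0.90 and 0.68 (adjusted p = 1.53e-06 and 1.49e-06, edgeR).

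Of 17 genes used as markers of stem-like breast cancer cells, a setting in which ALDH activity is also read, 11 were tested, 5 were called higher and 2 lower, with a median of 0.21. The drug efflux transporter gene ABCG2 rose by 1.58 on the log2 scale (adjusted p = 1.78e-08, edgeR), from 75, 75 and 52 counts to 237, 203 and 197. The epithelial adhesion gene EPCAM rose 2.14-fold (adjusted p = 3.2e-08, edgeR) and MYC 1.94-fold (adjusted p = 1.56e-13, edgeR). ITGB1, the integrin β1 gene, fell by 0.48 (adjusted p = 3.01e-09, edgeR). The other gene called lower, named here after its values were seen, was the chemokine receptor gene CXCR4 (adjusted p = 1.53e-06, edgeR). It had 22, 23 and 23 counts in parent and 1, 0 and 2 in ADRr libraries. CXCR4 passed the count filter only through the parent libraries, so its entry into the test required a difference. With at least 10 counts required in every library, or in limma on FPKM with either pseudocount and a minimum mean FPKM, 1 gene of this list was called lower.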
